A study of Mus musculus with 8 samples.

Results

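The cytosolic ribosome is built from ribosomal RNA and a fixed set of ribosomal proteins, called Rps in the small subunit and Rpl in the large subunit. Their genes were taken here by name as the symbols that begin with Rps or Rpl and go on with a number, with the stalk names Rplp0 to Rplp2, or as Rpsa. The S6 kinases and rows named as pseudogenes were left out. Of 92 rows with such a name, 88 reached a value of 1 or more in 2 or more of the 8 samples, 37 of them Rps and 51 Rpl names, among 16232 genes that passed the same filter and 49492 rows in all. The 4 rows below the filter were the paralogs Rpl3l, Rps4l, Rpl10l and Rpl39l. The last pair was listed at 0 in every sample. In the gene annotation of a later mouse build, 83 of the 88 were protein-coding, and Rps3a2, Rps3a3, Rpl6l, Rps12l1 and Rpl37rt were processed pseudogenes, copies of a spliced mRNA put back into the genome. Rps19bp1 matched by name but encodes a protein that binds Rps19 and is no part of the ribosome. It was kept in the counts, as the name rule has it.

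Polyadenylated RNA was sequenced from fibroblasts of mouse embryos grown in culture (MEFs), which are cells of connective tissue, in 4 groups of 2 samples. All cells came from floxed Pontin MEFs whose own Pontin gene had been deleted with Cre virus, and carried a Flag-tagged Pontin from a stable lentiviral copy, either wild type (WT) or with a pair of arginines changed to alanine (RA). Each line grew with glucose, in normal medium, or without it. The minus and plus columns of the table were read as normal medium and starvation. The paper names dialyzed serum for the glucose-free medium and serum not called dialyzed for routine culture. If the normal samples were in the latter, effects of serum and of glucose cannot be told apart. Each form of Pontin was carried by 1 stable cell line, so a difference between lines and a difference between forms of Pontin cannot be told apart. The labels do not say whether replicates were separate cultures, so p-values measure the spread between these samples, which may be technical.

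Ribosomes translate every mRNA of the cell, and making them takes a large part of the energy and nucleotides of a growing cell. Cells make the ribosomal proteins in step with each other and with ribosomal RNA. Their mRNAs carry a run of pyrimidines right at the cap, the 5′ terminal oligopyrimidine (TOP) tract. Through it, the RNA-binding protein Larp1 holds back their translation and keeps the mRNAs stable when nutrients are short and mTOR is less active. The values used here are relative to the other RNA of the same sample. They show neither the amount of mRNA per cell nor its translation. With such values, more mRNA of a gene and less of the rest cannot be told apart.

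The samples held 43205841 to 56363034 reads assigned to genes, and the lowest member, Rps27rt, still had 554 reads or more in every sample. Ruvbl1, which encodes Pontin, had values of 28.4 and 27.6 in WT and 36.8 and 32.05 in RA MEFs in normal medium, and 27.9 and 28.4 in WT and 45.05 and 42.9 in RA MEFs under starvation. These reads do not tell the added copy from the deleted gene, so the level was no check of the labels. The 11 fibroblast markers summed to 10842 to 11187 in the 4 normal samples, to 5571 to 5656 in WT and to 7362 to 7374 in RA under starvation, led by Vim. Of the 10 of them tested, 8 fell and 1 rose on starvation in WT and 6 fell and 2 rose in RA, where 39.2% of all genes tested fell and 39.3% rose in WT and 33.7% fell and 35% rose in RA. Markers of epithelial cells summed to 37.2 to 101.6, nearly all of it Krt19, those of endothelial cells to 2.02 to 9.43 and those of blood cells to 2.11 to 4.82. The part of these shifts in the results below was not tested. In such bulk RNA, fewer cells of a type and less RNA per cell cannot be told apart.

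Ribosomal protein genes took 5.17% and 5.27% of all reads in WT in normal medium and 7.65% and 7.88% under starvation. In RA they took 5.52% and 5.77% in normal medium and 6.48% and 6.34% under starvation. Each share had a Wilson 95% interval of at most 0.00749 percentage points on either side, which covers counting error only. It is too narrow where a fragment was counted more than once. The 4 groups did not overlap. The mean share went from 5.22% ± 0.0719 (SD, n = 2) to 7.77% ± 0.164 in WT, or 1.49-fold. In RA it went from 5.64% ± 0.174 to 6.41% ± 0.1004, or 1.14-fold. RA thus stood above WT in normal medium, at 1.08 times its share, and below it under starvation, at 0.825 times. With 2 samples a group, an exact permutation test of a single value cannot go below a two-sided p of 0.333, so these shares carry no p. Replicates of a group differed in the same direction for most members: the second replicate was higher in 79 of the 88 in WT and 74 in RA in normal medium, in 82 in WT under starvation and in 21 in RA under starvation. The level of the median member had a standard deviation between replicates of 0.0505 on the log2 scale.

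**Figure D1:**
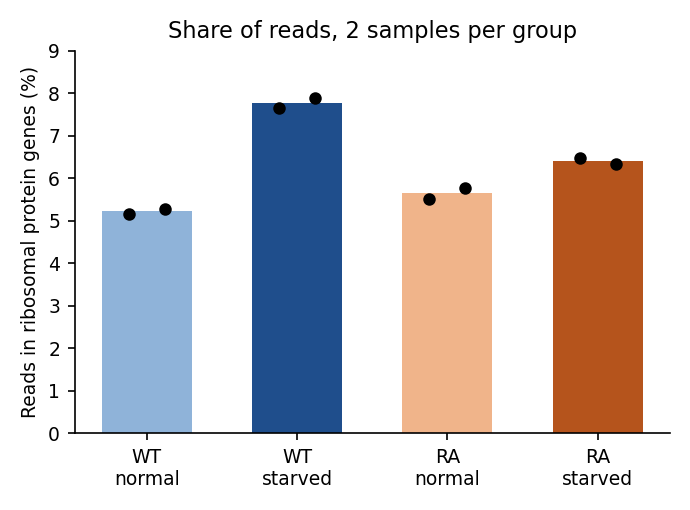
Share of all reads that fell in the 88 ribosomal protein genes, in percent, in each of the 8 samples (points) with the mean of each group of 2 as a bar. Both WT starved samples, at 7.65% and 7.88%, stand above both RA starved samples, at 6.48% and 6.34%, and the normal samples stand below all of these.

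Each gene was tested with limma on log2(value + 1) in one fit of all 8 samples, with Benjamini-Hochberg adjustment over the 16232 genes and a call at an adjusted p under 0.05. Fold changes and log2 differences are on this scale. In WT MEFs, starvation raised 85 of the 88 genes and lowered 2, where 39.3% of all genes tested rose and 39.2% fell. The median standard error was 0.0463 for the members and 0.0749 for all genes tested, so calls were easier to reach for members. Among the 2138 other genes with a mean value of at least 100, 917 rose and 976 fell. The median log2 response of the members was 0.616, a 1.53-fold rise, beside 0.00488 for all genes tested. The members called lower were Rps27l and Rpl7l1, and without the first WT starved replicate 1 was called. Rpl27, a protein of the large subunit, was the member with no call: its values were 409 and 406 in WT and 472 and 473 in RA MEFs in normal medium, and 407 and 429.6 in WT and 411 and 409 in RA MEFs under starvation, with a response in WT of 0.04 ± 0.037 (SE) and an adjusted p of 0.365. A change of 0.5 or more on the log2 scale was reached by 65 of the members that rose, against 22.5% of all genes tested.

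The highest response in WT was that of Rpl22l1, a paralog of the large-subunit protein Rpl22, and the next were Rpl3, a protein close to the catalytic centre of the large subunit, and Rpl13a, known for its release from the ribosome in inflammation. Rpl3 had values of 1097 and 1131 in WT and 1212 and 1214 in RA MEFs in normal medium, and 2349 and 2493 in WT and 1675 and 1645 in RA MEFs under starvation. Both WT starved samples stood above all others, and both RA starved samples stood between these and the normal samples. It rose 2.17-fold in WT (log2 1.12 ± 0.044, limma adjusted p = 2.17e-13). Values of Rpl13a were 573 and 582 in WT and 662 and 674 in RA MEFs in normal medium, and 1168 and 1233 in WT and 923 and 889.8 in RA MEFs under starvation. The order of the groups was that of Rpl3, and its log2 response in WT was 1.05 ± 0.04. Among the members that rose, the smallest responses in WT reached down to that of Rpl15, at 0.27 ± 0.042.

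In RA MEFs, starvation raised 59 members and lowered 8, where 35% of all genes tested rose and 33.7% fell. Among the 2138 other genes with a mean value of at least 100, 772 rose and 1030 fell. The median log2 response was 0.200, a 1.15-fold rise, beside 0.0127 for all genes tested, and 5 members rose by 0.5 or more, as did 16.3% of all genes tested. The highest responses were those of Rpl22l1, of Rpl17 at 0.55 ± 0.046 and of Rpl12 at 0.54 ± 0.077. Rpl17 lines the exit tunnel and Rpl12 sits at the base of the stalk. The 8 members called lower were Rps27l, Rpl41, Rpl7l1, Rps19bp1, Rpl27, Rpl36al, Rps25 and Rps2, and without the second RA starved replicate 5 members were called lower. Rpl41, a very short and basic peptide of the ribosome, had values of 556 and 570.5 in WT and 602 and 635 in RA MEFs in normal medium, and 654 and 706 in WT and 501 and 476 in RA MEFs under starvation. The RA starved samples were the lowest and the WT starved samples the highest of the 8, with a log2 response of -0.34 ± 0.045 in RA (adjusted p = 3.63e-06) and 0.27 ± 0.045 in WT (adjusted p = 3.13e-05, limma).

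The difference between the responses was tested as the interaction term of the same fit, the response in RA minus that in WT. It was below 0 in all 88 members and passed the test in 85 of them. Of all genes tested, 26.1% passed it in that direction and 24.5% in the other. Among the 2138 other genes with a mean value of at least 100, 910 passed it in that direction and 587 in the other. Limma called no member with a higher response in RA, nor did any pass in that direction at an unadjusted p under 0.05, and edgeR and DESeq2 on the recovered reads called 0 as well. The median interaction was -0.439, beside -0.0107 for all genes tested, and 30 members were lower by 0.5 or more, where 9.16% of all genes tested were. Of the members, 57 rose in both lines and less in RA. Another 21 rose in WT with no call in RA, and 5 rose in WT and fell in RA, namely Rpl36al, Rpl41, Rps19bp1, Rps2 and Rps25. Rpl7l1 fell in both lines and Rpl27 fell in RA, each with a lower response in RA. The 3 members whose interaction did not pass were Rpl22l1 (-0.13 ± 0.082, adjusted p = 0.19), Rps20 (-0.14 ± 0.059, adjusted p = 0.064) and Rps27l (-0.09 ± 0.066, adjusted p = 0.246).

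**Figure D2:**
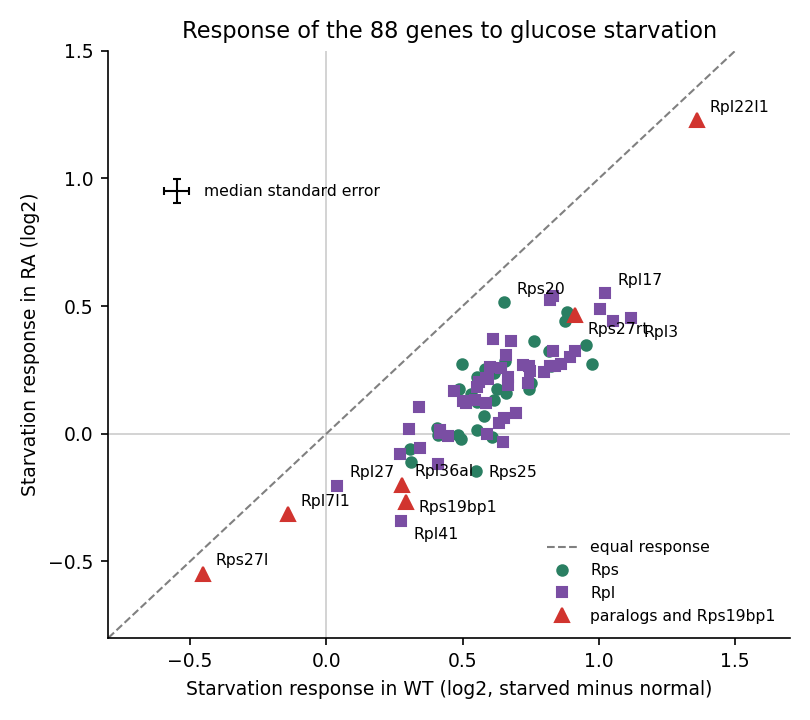
Log2 response to glucose starvation of each of the 88 genes in RA (vertical axis) against WT (horizontal axis), with Rps genes as circles, Rpl genes as squares, and paralogs and Rps19bp1 as triangles. Every point lies below the dashed line of equal response, and Rpl22l1, at 1.36 and 1.23, and Rps27l, at -0.45 and -0.55, lie near it at either end.

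The lowest interactions were those of Rps18, Rps25 and Rpl37a. Rps18, a protein of the head of the small subunit, had values of 512 and 511 in WT and 630.4 and 612 in RA MEFs in normal medium, and 1022 and 993 in WT and 759 and 741 in RA MEFs under starvation. It was higher in RA than in WT in normal medium and lower under starvation, with no overlap of groups, and rose 1.97-fold in WT and 1.21-fold in RA (interaction -0.70 ± 0.054, limma adjusted p = 1.44e-08). Rps25, which is needed for translation from several viral internal entry sites, had values of 440.4 and 488 in WT and 487 and 557 in RA MEFs in normal medium, and 650.2 and 707 in WT and 462 and 480.03 in RA MEFs under starvation. Its WT starved samples stood above the rest, while the RA starved samples lay below both RA normal ones. The interaction was -0.69 ± 0.085, with log2 responses of 0.55 in WT and -0.15 in RA. Values of Rpl37a were 202 and 224 in WT and 234 and 248 in RA MEFs in normal medium, and 328 and 341 in WT and 241 and 230.2 in RA MEFs under starvation, and its interaction was -0.68 ± 0.068. Among members that passed, the interactions nearest to 0 were those of Rpl7l1 (-0.18), Rps7 (-0.22) and Rpl39 (-0.23).

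**Figure D3:**
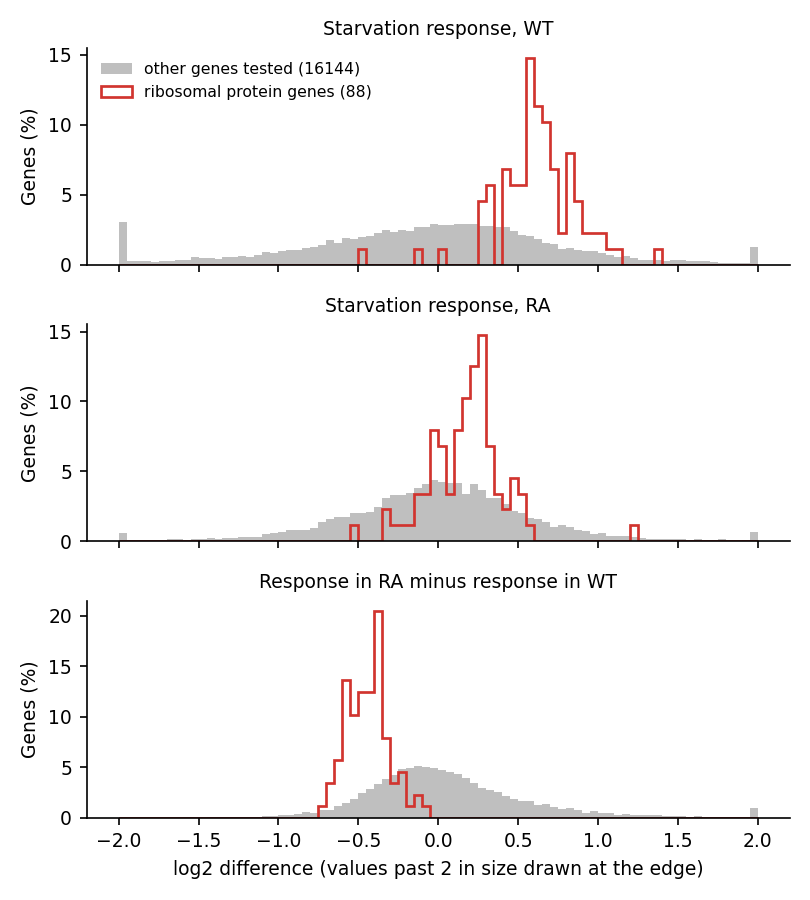
Distribution of log2 responses to starvation in WT (top) and RA (middle) and of the difference between them (bottom), as percent of genes per bin, for the 88 ribosomal protein genes (red line) and the 16144 other genes tested (grey). The ribosomal protein genes centre at 0.616 in WT, 0.200 in RA and -0.439 for the difference, each in a narrower band than the other genes.

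Between the lines in normal medium, all 88 members were higher in RA on average and 47 passed the test. Of all genes tested, 6.68% were called higher, and 325 of the 2138 other genes with a mean value of at least 100. The size was small, with a median log2 difference of 0.154 (1.11-fold) and none at 0.5 or more, which 1.5% of all genes tested reached. No member was called lower by limma, edgeR or DESeq2, where limma called 2.95% of all genes lower, nor at an unadjusted p under 0.05. The count of 47 leaned on single samples: it was 7 without the first and 22 without the second WT normal replicate, and 72 without the first and 22 without the second RA normal replicate. It also moved with the scaling of the libraries, to 28 when values were scaled to total reads and 20 after quantile normalization, where the median difference was 0.0771. With no filter on low values 8 members were called, and 4 with eBayes without trend. As deposited, 69.4% of all genes called in this comparison were higher in RA, against 40.5% under scaling to total reads, 58.5% under median-ratio scaling and 52.6% after quantile normalization. The largest differences were those of the small-subunit proteins Rps14 (0.31 ± 0.039), Rps3 (0.30 ± 0.037) and Rps15a (0.29 ± 0.037). Rps14, which lines the path of the mRNA, had values of 487 and 470.3 in WT and 605 and 586 in RA MEFs in normal medium, and 812 and 791 in WT and 685 and 660.4 in RA MEFs under starvation, so that RA and WT did not overlap in either medium and their order turned over on starvation. The smallest differences that passed were those of Rpl11, Rps29 and Rps19, at 0.13, 0.13 and 0.14.

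Under starvation the order was the reverse, with 79 members lower in RA. Of all genes tested, 32.1% were called lower, and 940 of the 2138 other genes with a mean value of at least 100. The median log2 difference was -0.282 (0.822-fold), beside -0.00806 for all genes tested, and 4 members were lower by 0.5 or more, as were 9.09% of all genes tested. No member was called higher by limma, edgeR or DESeq2, where limma called 30.8% of all genes higher, nor at an unadjusted p under 0.05. The lowest were Rpl3 (-0.54 ± 0.044), Rps25 (-0.53 ± 0.06) and Rps26 (-0.51 ± 0.064), a protein at the mRNA exit. The smallest differences that passed were those of Rps3a3, Rpl5 and Rpl7, at -0.10, -0.13 and -0.14. Rps20, a protein of the head of the small subunit, had values of 646 and 660.4 in WT and 708 and 738 in RA MEFs in normal medium, and 1001 and 1053 in WT and 1053 and 1014 in RA MEFs under starvation. The starved samples of both lines overlapped, with a log2 difference of 0.01 ± 0.042 and an adjusted p of 0.862 by limma. These comparisons between lines use the same samples as the responses above and are not independent of them.

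**Figure D4:**
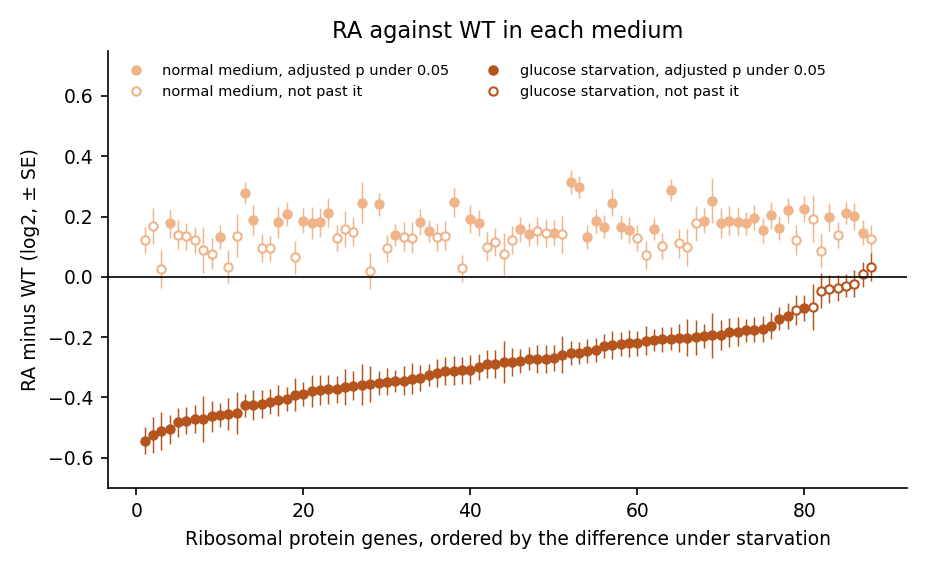
Log2 difference between RA and WT with its standard error for each of the 88 genes in normal medium (light) and under starvation (dark), ordered by the difference under starvation. Filled points passed an adjusted p under 0.05, which 47 genes did above 0 in normal medium and 79 below 0 under starvation.

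Grouped by name, the 37 Rps genes had a median response of 0.607 in WT and 0.175 in RA. The 51 Rpl genes had 0.641 and 0.202. Rps19bp1 and the processed pseudogenes were kept in these groups. Of the summed value of the members, Rps genes made up 40.5% and 40.4% in WT and 40.8% and 40.5% in RA MEFs in normal medium, and 39.2% and 39.1% in WT and 39.7% and 39.7% in RA MEFs under starvation. Starved and normal samples did not overlap in this share in either line, and the difference carries no p with 2 samples a group. The stalk, where elongation factors dock, is made of Rplp0, Rplp1 and Rplp2. All 3 rose in WT, where 39.3% of all genes tested did, and 2 rose in RA, where 35% did. All 3 of the stalk had a lower response in RA, as had 26.1% of all genes tested. Rplp0, its anchor, had values of 1817 and 1836 in WT and 2066 and 2169 in RA MEFs in normal medium, and 3292 and 3339.8 in WT and 2629 and 2491 in RA MEFs under starvation, and Rplp2 the smallest response of the 3 in WT, 0.42 ± 0.047. Rpl5 and Rpl11 form with 5S ribosomal RNA a particle that, when free, binds and blocks Mdm2. Values of Rpl5 were 844 and 885 in WT and 997 and 1018 in RA MEFs in normal medium, and 1331 and 1402 in WT and 1260.3 and 1236 in RA MEFs under starvation, and those of Rpl11 were 605 and 616 in WT and 649 and 689 in RA MEFs in normal medium, and 904 and 933 in WT and 664 and 672 in RA MEFs under starvation. Both rose in WT, at 0.66 and 0.59. In RA, Rpl5 rose by 0.31 ± 0.043, while the difference for Rpl11 was -0.00 ± 0.04 and did not pass.

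Of the 8 proteins that line or surround the exit tunnel of the nascent peptide, all 8 rose in WT and 5 in RA. All 8 had a lower response in RA. The shares of all genes tested were 39.3%, 35% and 26.1%, and the counts of the 88 members 85, 59 and 85. The responses of the 8 in WT ran from 0.34 (Rpl39) to 1.02 (Rpl17). Of the 9 proteins along the path of the mRNA through the small subunit, all 9 rose in WT. All 9 had a lower response in RA. In RA 4 of the 9 rose and 1 fell, where 35% of all genes tested rose and 33.7% fell. The 4 that rose thus stood near the background. The median response of the 9 in WT was 0.61, with the lowest for Rps2 at 0.31. The interaction was lowest for Rpsa, also known as the laminin receptor, at -0.62 ± 0.068. Rps2 had the second highest level per kilobase of transcript in WT in normal medium, after Rplp1. It had values of 2362 and 2322 in WT and 2534 and 2674 in RA MEFs in normal medium, and 2865 and 2946 in WT and 2419.6 and 2394 in RA MEFs under starvation, and was the member of the 9 that fell in RA (-0.11 ± 0.047, adjusted p = 0.0414, limma).

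Paralogs, some of whose products can stand in for a ribosomal protein, were read beside the proteins they resemble. Rpl22l1 had values of 71.2 and 79.4 in WT and 85.7 and 74.6 in RA MEFs in normal medium, and 192 and 197 in WT and 187 and 190.05 in RA MEFs under starvation. Starved and normal samples did not overlap in either line, and the lines overlapped in normal medium, while RA lay just below WT under starvation. It rose 2.57-fold in WT and 2.34-fold in RA (adjusted p = 7.4e-13 and 7.05e-12, limma). Its parent Rpl22 had values of 288 and 296 in WT and 283 and 314 in RA MEFs in normal medium, and 441 and 445 in WT and 364 and 350.01 in RA MEFs under starvation and rose 1.51-fold and 1.20-fold. As a percentage of the value of Rpl22, with no correction for length, Rpl22l1 stood at 24.7 and 26.8 in WT and 30.3 and 23.8 in RA in normal medium, and at 43.6 and 44.3 in WT and 51.4 and 54.3 in RA under starvation.

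Rps27l went the other way. This paralog of Rps27 is known as a target of p53 and a partner of Mdm2. It had values of 77.9 and 79.7 in WT and 87.3 and 85.02 in RA MEFs in normal medium, and 55.1 and 59.4 in WT and 58.5 and 58.6 in RA MEFs under starvation, so that all 4 starved samples lay below all 4 normal ones. Its log2 response was -0.45 ± 0.046 in WT (adjusted p = 9.98e-08) and -0.55 ± 0.046 in RA (adjusted p = 1.48e-08, limma). Rps27 itself, with values of 256 and 277 in WT and 299 and 295 in RA MEFs in normal medium, and 486 and 493 in WT and 402 and 405 in RA MEFs under starvation, rose in both lines. Rps27l therefore went from a mean of 29.6% of Rps27 to 11.7% in WT, and in RA from 29.0% to 14.5%. Rpl36al, a copy of Rpl36a without introns, went from 46.4% to 37.5% of its parent in WT, and in RA from 44.8% to 33.5%. Rpl7l1, a protein of the nucleolus related to Rpl7, went from 20.7% to 13.6% and from 20.4% to 14.5%. Rps27rt, a retrocopy with the lowest level of all members, rose with Rps27 and stayed at 4.596% to 5.15% of it in the group means. Reads of such a near-identical copy can be split between the copy and its parent by the counting, so its value is uncertain.

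**Figure D5:**
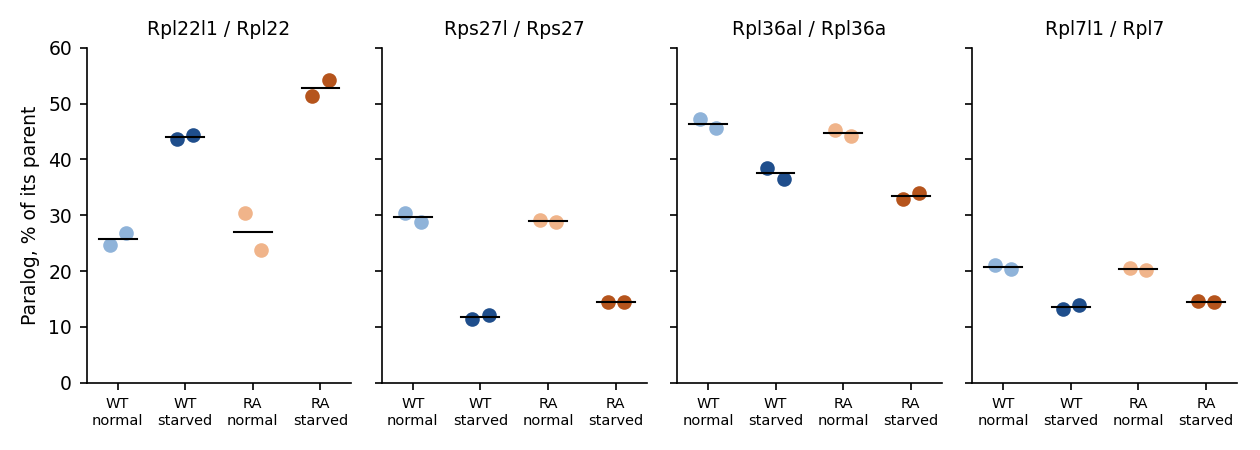
Value of 4 paralogs as a percentage of the value of the protein they resemble, in each of the 8 samples (points) with the mean of each group (line). Rpl22l1 rises against Rpl22 on starvation in both lines, and Rps27l, Rpl36al and Rpl7l1 fall against Rps27, Rpl36a and Rpl7.

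Members were also compared with the median member, by taking its shift in each sample from every gene and fitting the whole table again. This step centres the members and moves all other genes by the shift of the members. A lower share among members than among all genes is therefore built in, and says nothing about the members. In WT, 53 of the 88 then differed from the median response, where 84.2% of all genes did. In RA 48 did, where 66.2% of all genes did. In both lines the largest departures were those of Rpl22l1 above the others (0.74 in WT and 1.04 in RA) and Rps27l below them (-1.07 and -0.74). For the interaction 21 members stood apart, where 65.5% of all genes did, with Rps18, Rps25 and Rpl37a lowest (-0.27, -0.26 and -0.25) and Rps27l, Rps20 and Rpl22l1 among the highest (0.34, 0.30 and 0.30). Between the lines under starvation 38 stood apart (64.7% of all genes), and 25 or 22 did without the first or the second RA starved replicate. In normal medium 4 stood apart (25.7% of all genes): Rps14, Rps3 and Rps15a above and Rpl22 below the median member. Without either WT normal or either RA starved replicate that count was 0, and without the first RA normal replicate it was 2.

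Per kilobase of transcript, the value of the 83 protein-coding members in WT in normal medium had a median of 712.5 and ran from 32.7 (Rps27rt) to 2964 (Rplp1), with the middle 50% between 557.9 and 944.7. Their transcripts were short, with a median of 711.5 bases against 1842 for all genes tested. Spearman's rho of length with the response in WT was 0.019 across the 83, which share the same libraries. Within transcripts of up to 600 bases, the 472 other protein-coding genes had a median response of -0.0427 in WT and -0.0889 in RA. The 28 members in that range had 0.620 and 0.175. Any part of transcript length in these responses was not tested.

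Many copies and neighbours of these genes can share their reads. The table held 276 rows named as ribosomal protein pseudogenes, of which 129 were tested. Spearman's rho of the response of a row in WT with that of its parent gene was 0.671 across all 129. It was 0.925 across the 76 with a mean value of at least 10. Such rows are not independent. In 40 of the 88 members, exons overlap another annotated gene by at least 50 bases, in 19 of them on the opposite strand, and the kit does not mark strand. Wdr38, on the opposite strand of Rpl35, had a mean value of 540.8 beside 540.6 for Rpl35, and Gm28037 had 491.5 beside 487.8 for Rpl24. Gm44510 and the pseudogene Rps12l1 both had 55.6, while Tlcd1 had 698 beside 987 for Rpl23a. Reads that fall in an overlap cannot be told from those of the other gene.

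The annotated start sites are shown because the TOP tract begins there and marks this family of mRNAs. RefSeq windows around the start in the mouse build GRCm38.p6 were found for 63 of the 83 protein-coding members. A tract was counted as a C followed by 4 or more bases that are C or T on the strand of the gene. It began exactly at an annotated start in 14 of the 63 (22.2%), against 2.78% of 9597 other protein-coding genes tested and 2.51% of the 32851 start windows in the RefSeq table, of which a gene can have several. It began within 5 bases of a start in 30 of the 63 (47.6%), against 23.5% of those genes and 18.3% of the windows. Each line below gives 12 bases before and 18 bases from an annotated start, with the tract in capitals and lower case elsewhere. A tract counted at the start was read from there on. The run of C and T can therefore reach further upstream in lower case, as in Rps18, Rps27 and Rpl15. Rps18 had the lowest interaction, Rpl15 one of the smallest responses in WT, and Rpl22l1 and Rps27l the extremes among paralogs. Rps27 is the parent of Rps27l. Rpl41 and Rps25, which fell in RA, had no tract within 5 bases of the start in these windows. Of the others that fell in RA, Rps27l and Rps2 had a tract that near, and Rpl7l1, Rps19bp1, Rpl27 and Rpl36al had none.
Rps18, chr17:33955648-33955677, minus strand: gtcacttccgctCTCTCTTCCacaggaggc
Rps27, chr3:90213631-90213660, minus strand: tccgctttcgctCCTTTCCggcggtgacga
Rpl15, chr14:18270969-18270998, minus strand: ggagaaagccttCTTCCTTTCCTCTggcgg
Rpl22l1, chr3:28805496-28805525, plus strand: cggcgcaagcccgttCTCTTCCCacggctg
Rps27l, chr9:66946074-66946103, plus strand: ctcctccccgccgCCTCTatcccggaagtt
Rpl41, chr10:128549151-128549180, minus strand: acgggccggctcggaagtgacgacaccgag
Rps25, chr9:44407702-44407731, plus strand: ttccgacatcttagcgaggctgctgtggtc
The sequence of Rps27l is from the first of its starts in the table. Members with a tract within 5 bases had a median response of 0.646 in WT and 0.199 in RA (n = 30). Those without one had 0.599 and 0.189 (n = 33). The median interactions were -0.408 with a tract and -0.485 without. An annotated start can lie some bases from the cap used in these cells, and a missing match says only that these letters are not in the window. The split thus does not sort mRNAs by whether they carry a TOP tract. Any relation of the tract to the response was not tested.

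Ribosomal proteins with other names were read beside the 88. Fau encodes Rps30 as a fusion with a ubiquitin-like protein, and Rack1 sits on the small subunit as a scaffold for kinases. Fau had values of 373 and 384 in WT and 429 and 432 in RA MEFs in normal medium, and 741 and 761 in WT and 599.8 and 576 in RA MEFs under starvation. Fau and Rack1 rose in WT (0.99 and 0.90) and in RA (0.45 and 0.41). The interaction was -0.54 and -0.49, and passed in both.

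Among 22 translation factors and other mRNAs known to carry a TOP tract, 18 rose and 3 fell in WT, 12 rose and 8 fell in RA, and 17 had a lower response in RA. Of all genes tested, 39.3% rose and 39.2% fell in WT, 35% rose and 33.7% fell in RA and 26.1% had a lower response in RA, so that the 8 that fell in RA stood near the background. The median responses of the list were 0.407 and 0.109, beside 0.00488 and 0.0127 for all genes tested. Eef2, the translocase of elongation, had values of 2293 and 2338 in WT and 2402 and 2573 in RA MEFs in normal medium, and 5548 and 5411 in WT and 3913 and 3859.5 in RA MEFs under starvation, with a rise of 2.37-fold in WT and 1.56-fold in RA. Eif4b, which aids the helicase of initiation, had values of 513 and 518 in WT and 512 and 514 in RA MEFs in normal medium, and 1039.99 and 1060.3 in WT and 639 and 636 in RA MEFs under starvation, with a response in WT of 1.02 ± 0.036 and an interaction of -0.71 ± 0.051. The lowest interaction of the list was that of Eef1b2, an exchange factor of elongation, at -0.73. Hnrnpa1 and Vim fell in both lines, at -0.73 and -0.57 in WT and -0.82 and -0.91 in RA.

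Of 11 genes that control TOP mRNAs, 7 rose and 3 fell in WT, 4 rose and 3 fell in RA, and 6 had a lower response in RA. The shares of all genes tested were 39.3% and 39.2% in WT, 35% and 33.7% in RA and 26.1% for a lower response in RA, so that the counts that rose and fell in RA stood near the background. Larp1b, a relative of Larp1, rose most (1.77 in WT and 1.46 in RA), then Eif4ebp1, an inhibitor of cap binding that mTOR switches off (0.98 and 0.87). Eif4ebp2 fell (-0.63 and -0.90), as did Cnbp (-0.42 and -0.30), a protein that binds TOP mRNAs. Of 14 p53 targets and regulators, 8 rose and 4 fell in WT (against 39.3% and 39.2% of all genes tested), 8 rose and 3 fell in RA (against 35% and 33.7%), and the interaction was called lower in 4 and higher in 4. Of all genes tested, 26.1% had a lower and 24.5% a higher interaction, so that these counts of 4 stood near the background. Mdm2, the ligase that Rpl5 and Rpl11 block, had values of 56.7 and 55.3 in WT and 55.03 and 57.97 in RA MEFs in normal medium, and 106 and 107 in WT and 70.4 and 74.3 in RA MEFs under starvation, with an interaction of -0.56 ± 0.065. Cdkn1a, the inhibitor of the cell cycle, had an interaction of the other sign, 0.53 ± 0.13, and Trp53inp1 the highest response of the list in both lines, 3.01 in WT and 1.66 in RA.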

How the data were processed

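PolyA RNA libraries (TruSeq RNA v2) of 8 samples, 2 per group, were sequenced by the authors and mapped with TopHat2 2.0.9 to mm9. Per the labels, bedtools and edgeR were also among the tools. The counter, its annotation and its handling of strand are not given in the sources used here. The deposited signal values are named as CPM but are relative to a scaled library size, since the columns sum to different totals. All values came out as whole reads (within 0.05 of a read) when divided by the worth of 1 read in each sample. The test had been planned for CPM and was run on these values as deposited. Depth was 43205841 to 56363034 reads, and 3 reads equal a value of 0.0548 to 0.0690. In the samples, 78.2% to 80.5% of the lowest recovered counts were even, so that 1 fragment may be counted as 2 reads.

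The 16232 genes that reached a value of 1 in 2 or more samples were tested with limma 3.58.1 in R 4.3.3 on log2(value + 1), with 4 group means, eBayes with trend and Benjamini-Hochberg adjustment over all genes tested. Groups were taken per the labels. Alternatives were edgeR 4.0.16 and DESeq2 1.42.0 on the recovered reads, other scalings, filters, pseudocounts and thresholds, a replicate block, each sample left out, and the members without paralogs. The test was also run on simulated data in which few genes changed, and those in a single group. That setting is unlike these data, so the run is no support for the counts given here. Lengths, gene types and overlaps came from GENCODE M21 and start sites from RefSeq, both on GRCm38. No coordinates were taken from the files, whose build is mm9.

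The members and gene lists were chosen with earlier results of these data known. Named genes are the structural lists, paralogs with their parents, Rps19bp1, the 3 highest and 3 lowest called members of each comparison as measured and relative to the median member, Ruvbl1, the ribosomal proteins with other names, and the 2 highest and 2 lowest called genes of the lists of translation factors, TOP control and p53. Rpl27 and Rps20 as members without a call, the lists of members by pattern, and the printed start sites were chosen after their values were seen. Values of some named genes are not reported here.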

Additional observations from a re-analysis of the deposited data

Results flagged for a closer look

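The response to starvation differed between the lines, by limma's interaction term, for 85 of the 88 members, all with a lower response in RA. All values below are that term, the log2 response in RA minus that in WT, each past an adjusted p under 0.05. In the small subunit the values were -0.70 for Rps18, -0.69 for Rps25, -0.62 for Rpsa, -0.57 for Rps14, -0.55 for Rps3 and -0.54 for Rps26. Those of Rps15, Rps23, Rps15a, Rps28 and Rps19 were -0.51, -0.50, -0.49, -0.49 and -0.49. Those of Rps27, Rps2, Rps4x, Rps29 and Rps7 were -0.44, -0.42, -0.40, -0.38 and -0.22. The copies Rps27rt and Rps3a3 had -0.45 and -0.33, and Rps19bp1, which is no ribosomal protein, -0.56.

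In the stalk and the 5S particle, the values were -0.59 for Rplp0, -0.41 for Rplp1, -0.40 for Rplp2, -0.35 for Rpl5 and -0.59 for Rpl11. Around the exit tunnel they were -0.44 for Rpl4, -0.47 for Rpl17, -0.37 for Rpl19, -0.37 for Rpl23a, -0.48 for Rpl26, -0.40 for Rpl31, -0.59 for Rpl35 and -0.23 for Rpl39. Among the other proteins of the large subunit, Rpl37a had -0.68, Rpl3 -0.67, Rpl13a -0.61, Rpl41 -0.61, Rpl10 -0.54 and Rpl36a -0.37. Rpl15, Rpl22, Rpl7, Rpl12 and Rpl27 had -0.35, -0.34, -0.30, -0.29 and -0.24, and the paralogs Rpl36al and Rpl7l1 -0.48 and -0.18. The ribosomal proteins with other names, Fau and Rack1, had -0.54 and -0.49. Ruvbl1, the gene of Pontin, had a higher response in RA, at 0.34.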

How the results depend on the processing

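No median over the members, and no difference of a singly named gene that was called in the main fit, changed sign under any alternative. Signs of differences that were not called were not compared. Of 400 alternative values for the counts, medians and shares, 354 stayed within the spread between replicates or, for counts, within 1.5 times, and 46 moved. In normal medium, the 47 members higher in RA were 8 with no filter on low values, 28 with scaling to total reads, 20 with quantile normalization, 4 with eBayes without trend, 0 at an adjusted p under 1e-05 and 0 with a size of 0.5 or more, and 7 to 72 with each sample left out. The median was 0.0771 with quantile normalization. Under starvation, the 79 lower in RA were 28 at 1e-05 and 4 with the size. The 2 lower on starvation in WT were 1 without trend, 1 at 1e-05, 0 with the size and 0 without paralogs or without every copy (the latter added after seeing the data), and 1 to 2 with each sample left out. The median in WT was 0.542 with total reads and 0.508 with quantile normalization. In RA, the 59 higher were 17 at 1e-05 and 5 with the size, and the 8 lower were 5 with no filter, 5 without trend, 3 at 1e-05, 1 with the size, 4 without paralogs and 4 without every copy, and 5 to 12 with each sample left out. For the interaction, the 85 lower were 31 at 1e-05 and 30 with the size, and the median was -0.367 with total reads and -0.350 with quantile normalization. Members apart from the median member in normal medium, 4, were 0 by edgeR and 0 to 6 with each sample left out, and those under starvation 22 to 43. Without mitochondrially encoded genes the mean shares were 5.35% and 7.96% in WT and 6.55% in RA starved. The cause of these moves was not tested, beyond the stricter thresholds and the members left out. Genes named singly gave 5559 alternative values. None reversed a called difference, 500 lost their call, 212 of them for RA against WT in normal medium, and 64 gained one.

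Replicate numbers were not taken to pair the samples, since correlations of deviations between groups were not over 0.1 in every pair of groups: they ran from -0.00764 to 0.157 over all genes and from 0.0022 to 0.466 over the members. With the replicate number as a block, 65 members were higher in RA in normal medium, 80 lower under starvation, 85 higher in WT, 60 higher in RA and 86 lower for the interaction, and 7 stood apart from the median member in normal medium. With 2 samples a group, the main fit had 4 residual degrees of freedom, to which eBayes added 12.3 from the spread of all genes. The fits with a block, with a sample left out or with only the groups compared had fewer residual ones. Depth did not limit members, each with 554 reads or more.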
